A study of Mus musculus with 6 samples.

Results

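The 9 genes described here encode enzymes of the tricarboxylic acid (TCA) cycle and the cytosolic relatives of some of them: Cs, Idh1, Idh2, Idh3a, Ogdh, Suclg1, Fh1, Mdh1 and Mdh2. They were taken by gene symbol from a table of 54838 genes, and all 9 were found there once. All 9 also passed the filter on low counts, as did 13629 genes in all. The RNA came from mouse B16F10 melanoma cells, a pigmented line derived from a mouse skin tumour, sequenced from control cells (n = 3 libraries) and from cells given fenofibrate at 50 µM (n = 3). Fenofibrate lowers blood lipids, and fenofibric acid, the form active in the body, switches on the nuclear receptor PPARα. The submitters call the samples biological triplicates. No transgene, deletion or second agent is named for either group, and neither the vehicle of the controls nor the duration of treatment is given in the sources used here. Groups follow the sample titles. The cell line field changes from B16F10 to B16F15 over the 6 samples, and if it is meant as written, line and treatment cannot be told apart.

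The TCA cycle runs in the mitochondrial matrix, where it oxidises the acetyl group of acetyl-CoA to carbon dioxide and passes the electrons to NADH and to the respiratory chain. Its intermediates are also drawn off for synthesis: citrate leaves for lipid synthesis, 2-oxoglutarate for glutamate, and oxaloacetate for aspartate. Some of its reactions have a cytosolic counterpart with its own gene, such as isocitrate dehydrogenase 1 and malate dehydrogenase 1, which supply NADPH and take part in moving reducing equivalents across the mitochondrial membrane.

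The libraries held 13540038 to 14710856 counts each, so a count of 0 in a library allows up to 0.204 to 0.222 CPM (a count scaled to the summed counts of its library), a limit for counting error alone. Genes encoded in the mitochondrial genome accounted for 5.88% to 6.66% of the counts in control and 6.42% to 6.57% in fenofibrate. All 7 melanocyte lineage markers examined were detected, with a summed level of 21209 to 22592 CPM in control and 26034 to 27577 CPM in fenofibrate. Of these markers 5 were called higher, beside 19.5% of all genes, where called means a Benjamini-Hochberg adjusted p under 0.05 over all 13629 genes in edgeR's quasi-likelihood test. Markers of macrophages summed to 1.91 to 3.34 CPM in control and 3.83 to 6.57 CPM in fenofibrate, with the defining markers Adgre1 and Itgam at 0 counts. In that list Cd68 had 28, 47 and 26 counts in the controls and 82, 45 and 63 in the treated libraries. It was called higher (adjusted p 0.0489, edgeR), though the groups overlapped. Ptprc went from 0 counts to 6, 10 and 8. B cell markers summed to 0.0736 to 0.441 CPM in control and 1.25 to 1.29 CPM in fenofibrate, and Jchain among them went from 0 counts to 11, 13 and 16 and was called higher (adjusted p 0.00168, edgeR). T cell markers summed to 0 CPM in control and 0.0680 to 0.626 CPM in fenofibrate, where Cd3g had 8 counts in all, Trac 4, Cd2 2 and Cd3e 0. Fibroblast markers summed to 1.71 to 3.53 CPM in control and 1.04 to 1.33 CPM in fenofibrate, and endothelial and keratinocyte markers stayed at or under 0.662 CPM. Each of the 9 enzyme genes lay between 62.7 and 409 normalised CPM, and the part of these other cells in the results was not tested. In bulk RNA, fewer cells of a type and less RNA per cell cannot be told apart.

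With fenofibrate, transcripts of both malate dehydrogenases rose, those of both NADP-linked isocitrate dehydrogenases fell, and the other 5 genes did not pass the test. The changes were small: Mdh1 rose 1.17-fold and Mdh2 1.10-fold, while Idh1 was 1.16-fold lower and Idh2 1.15-fold lower. In edgeR's test 4 of the 9 genes (44.4%) were called, beside 39.1% of all genes. In each direction 2 of the 9 (22.2%) were called, beside 19.5% of all genes called higher and 19.5% called lower, so the share called was near the background. The groups did not overlap in normalised CPM for 7 of the 9 genes (77.8%), beside 53.3% of all genes. The median log2 fold change of the 9 was −0.07, beside −0.00 for all genes. Their median absolute log2 fold change was 0.14, beside 0.25 for all genes tested and 0.45 for the genes called.

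**Figure D1:**
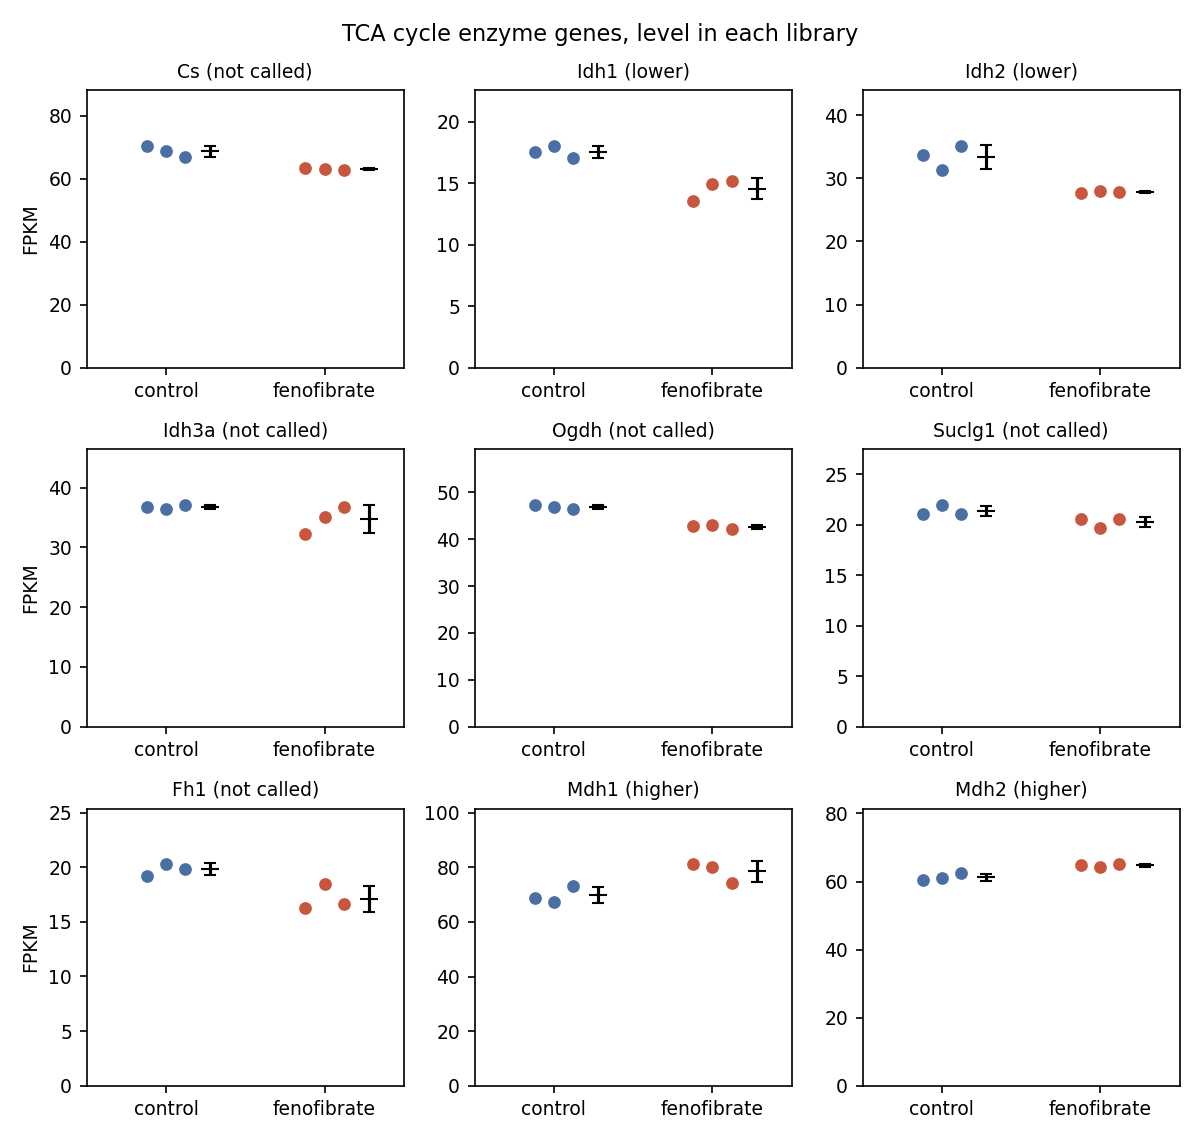
FPKM (counts relative to gene length and library total, vertical axis) of the 9 genes in each of the 3 control and 3 fenofibrate libraries, 1 point per library, with the group mean and SD. Mdh1 and Mdh2 lie higher with fenofibrate and Idh1 and Idh2 lie lower. For Idh3a the 2 groups overlap, and the fenofibrate libraries spread more widely than the controls.

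Citrate synthase, encoded by Cs (10:128337734-128362479, plus strand, GRCm38), joins acetyl-CoA to oxaloacetate at the start of the cycle, and its activity is widely used as a measure of mitochondrial content. Cs measured 409, 400.4 and 392 normalised CPM in the control libraries and 385, 381 and 380 in the fenofibrate libraries. Every fenofibrate library lay below every control library, by a margin small beside the level. The fold was 0.954, with a log2 fold change of −0.07 ± 0.03 (SE) and an adjusted p of 0.140 (edgeR), so Cs was not called. Its 95% interval of 0.904 to 1.01-fold bounds the difference that these libraries allow. Cs shares 2.01% of its 50-base stretches with another annotated gene, the citrate synthase-like gene Csl, which had 9 counts over all libraries.

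The isocitrate dehydrogenases turn isocitrate into 2-oxoglutarate. Idh1 encodes the NADP-linked enzyme of the cytosol and peroxisome (1:65158616-65186500, minus strand), and Idh2 the NADP-linked enzyme of the mitochondrion (7:80094846-80115392, minus strand). Idh1 measured 77.6, 80.0 and 76.1 normalised CPM in control and 62.7, 68.6 and 70.1 with fenofibrate. All 3 treated libraries lay below all 3 controls, and the treated libraries spread more widely than the controls. Idh1 fell by 0.21 ± 0.06 (SE) on the log2 scale, with a 95% interval of −0.35 to −0.07 and an adjusted p of 0.0249 (edgeR). That call was lost without either of the control replicates 1 and 2 (adjusted p 0.0605 and 0.0760) or fenofibrate replicate 1 (0.0638).

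Idh2 measured 171, 159 and 179 normalised CPM in the controls and 146, 147 and 147 with fenofibrate. The 3 treated libraries were nearly equal, while the controls spread over a range wider than the gap between the groups. Idh2 fell by 0.21 ± 0.05 (SE) on the log2 scale, with an interval of −0.33 to −0.09 and an adjusted p of 0.0150 (edgeR). Idh2 was called lower in all 15 alternative settings run, with adjusted p from 0.00507 to 0.0485. The gene body of Idh2 overlaps Gm45203, which shares no exonic base with it and had 1 to 3 counts per library.

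Idh3a encodes the catalytic alpha subunit of the NAD-linked enzyme, which carries the reaction of the cycle proper (9:54586334-54604661, plus strand). It measured 245, 243 and 249 normalised CPM in control and 225, 243 and 256 with fenofibrate. The lowest and the highest of the 6 values both came from treated libraries, so the groups overlapped. The fold was 0.983 with a 95% interval of 0.904 to 1.07, and the adjusted p was 0.735 (edgeR). Idh3a was not called in any of the 15 alternatives, where its log2 fold change ran from −0.08 to 0.03.

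A stretch of sequence from before the transcription start is shown for Idh1 and Idh2, which fell together, and for Mdh2, which rose. The windows reach up to 250 bases before the RefSeq start on GRCm38.p6, trimmed to bases outside any annotated exon, and are written 5′ to 3′ on the strand of the gene. Capitals mark a GC box (GGGCGG or its reverse complement) or a CCAAT box (CCAAT or its reverse complement). The untrimmed window of Mdh1 lies within annotated exons and is not printed. The trimmed stretches are chr1:65186501-65186682 for Idh1, chr7:80115393-80115600 for Idh2 and chr5:135778399-135778479 for Mdh2. Untrimmed, the windows were chr1:65186480-65186729, chr7:80115351-80115600 and chr5:135778399-135778648. Trimming took away the bases nearest the RefSeq start in each, so the stretches end at different distances before it.
Idh1: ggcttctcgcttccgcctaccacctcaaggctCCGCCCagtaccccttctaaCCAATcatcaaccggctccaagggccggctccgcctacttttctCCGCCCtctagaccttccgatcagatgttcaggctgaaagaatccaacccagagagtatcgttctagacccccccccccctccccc
Idh2: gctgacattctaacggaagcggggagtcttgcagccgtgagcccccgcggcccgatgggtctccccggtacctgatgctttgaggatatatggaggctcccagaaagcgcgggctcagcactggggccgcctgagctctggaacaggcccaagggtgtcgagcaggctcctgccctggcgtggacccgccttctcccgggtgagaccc
Mdh2: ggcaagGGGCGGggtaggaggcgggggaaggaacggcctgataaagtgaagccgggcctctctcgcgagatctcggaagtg

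Idh1 carries GC boxes and a CCAAT box in this stretch of its start site 1, Mdh2 a GC box, and Idh2 none of these letters outside its exons. These differences depend on the start and the trimming: the trimmed stretch of Idh1 start site 2 holds none, and the untrimmed window of Idh2 holds 2 GC boxes and 1 CCAAT box. RefSeq windows were matched for 8 of the 9 genes, with 14 windows in all because Idh1 has 2 starts and Ogdh 6. Several of the windows of Ogdh overlap, so that 1 match can be counted in more than 1 window. Over the whole 250 bases a GC box was present in 9 of 14 windows (64.3%, 7 of the 8 genes) and in 32.7% of all 32851 promoter windows of the mouse. A CCAAT box was present in 9 of 14 windows (6 of the 8 genes) and in 33.8% of all windows. The E-box CACGTG stood in 3 windows, all of Ogdh, of which 2 overlap and hold the same match, and in 6.02% of all windows. A direct repeat of AGGTCA with 1 base between the copies, as read by PPAR receptors, the ERR element TCAAGGTCA and the NRF1 element (GCGC on each side of AT) stood in 0 of the 14 windows, and in 0.0335%, 0.387% and 0.782% of all windows. Both strands were searched, a stretch can hold several motifs, and a match or its absence only describes the letters of these windows.

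Ogdh (11:6291633-6356642, plus strand) encodes the E1 subunit of the 2-oxoglutarate dehydrogenase complex, which oxidises 2-oxoglutarate to succinyl-CoA. Ogdh measured 379, 377 and 374 normalised CPM in control and 358, 358 and 352 with fenofibrate. The groups did not overlap and each varied little. On the log2 scale Ogdh differed by −0.08 ± 0.03 (SE; 95% interval −0.15 to −0.01), and its adjusted p of 0.0751 (edgeR) was above the threshold.

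Suclg1 (6:73248382-73276911, plus strand) encodes the alpha subunit shared by both forms of succinyl-CoA ligase, which makes GTP or ATP from succinyl-CoA. It measured 116, 122 and 117 normalised CPM in control and 119, 113 and 119 with fenofibrate, and the groups overlapped. The fold of 0.987 had a 95% interval of 0.919 to 1.06 and an adjusted p of 0.764 (edgeR). Its absolute log2 fold change was larger than that of only 4.59% of all genes tested, the lowest place among the 9.

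Fh1 (1:175600374-175625635, minus strand) encodes fumarate hydratase, which adds water to fumarate to give malate in the mitochondrion and the cytosol. It measured 88.5, 93.7 and 92.2 normalised CPM in control and 78.1, 88.4 and 80.1 with fenofibrate. The groups only just did not overlap, since the highest treated library (88.4) lay beside the lowest control (88.5). On the log2 scale Fh1 differed by −0.15 ± 0.06 (SE; 95% interval −0.30 to −0.01), which gave an adjusted p of 0.0821 (edgeR) and no call. Leaving out fenofibrate replicate 2 gave Fh1 a difference of −0.21 and an adjusted p of 0.0325. The neighbouring gene Kmo overlaps Fh1 on the opposite strand without a shared exonic base and had 1 count over all libraries.

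Malate dehydrogenase closes the cycle by oxidising malate to oxaloacetate. Mdh2 (5:135778480-135790398, plus strand) encodes the mitochondrial enzyme, and Mdh1 (11:21556787-21572367, minus strand) the cytosolic one, which works in the malate-aspartate shuttle. Mdh1 measured 231, 226 and 247 normalised CPM in control and 284, 280 and 259 with fenofibrate. All 3 treated libraries lay above all 3 controls, with the nearest pair at 247 and 259. Mdh1 rose by 0.22 ± 0.05 (SE) on the log2 scale, with a 95% interval of 0.10 to 0.35 and an adjusted p of 0.0117 (edgeR). In absolute size that was the largest log2 fold change of the 9, and it exceeded that of 46.5% of all genes tested.

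Mdh1 overlaps Wdpcp on the opposite strand, and 52 exonic bases are shared, 2.03% of the exons of Mdh1. Wdpcp had 255, 234 and 233 counts in control and 234, 316 and 316 with fenofibrate, against 3204 to 3947 counts for Mdh1 in a library. Whether the authors counted by strand is not given in the sources used here, so reads of the shared bases cannot be told apart.

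Mdh2 measured 306, 309 and 318 normalised CPM in control and 343, 337 and 344 with fenofibrate, with every treated library above every control. It rose by 0.14 ± 0.03 (SE) on the log2 scale, with an interval of 0.06 to 0.21 and an adjusted p of 0.0157 (edgeR). The call of Mdh2 was lost without control replicate 1 (adjusted p 0.0674) or control replicate 2 (0.0581). It was also lost where libraries were scaled to their total counts and not by TMM, a scaling that assumes most genes do not differ.

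Scaling by library totals moved the median of all genes by −0.05 on the log2 scale and shifted all 9 genes downwards by about that amount. On that scale Cs (−0.12, adjusted p 0.0233, edgeR), Ogdh (−0.14, 0.0119) and Fh1 (−0.21, 0.0304) were called lower, and Mdh2 (0.08, 0.0876) was not called. The count then stood at 1 gene higher and 5 lower, against 2 and 2 with TMM. Over all genes the same change of scale turned 2664 called higher and 2662 lower into 2180 and 3280. The signs of the 4 genes called with TMM were the same on both scales.

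**Figure D2:**
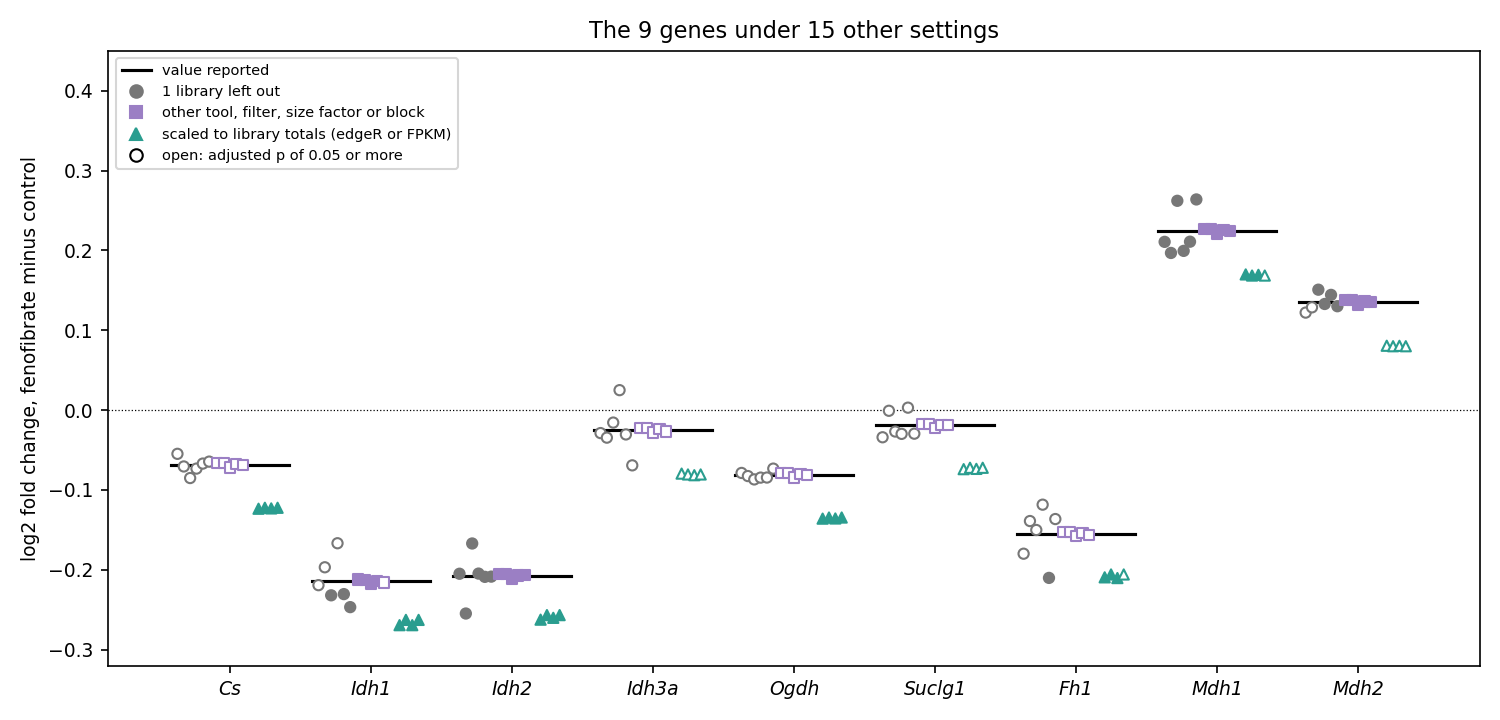
log2 fold change (fenofibrate minus control, vertical axis) of each of the 9 genes under 15 other settings: circles leave out 1 library, squares change the tool, filter, size factor or block, and triangles scale to library totals (edgeR on totals, or limma on FPKM). Open symbols have an adjusted p of 0.05 or more; for Cs, Ogdh and Mdh2 the triangles stand on the other side of the threshold from the value reported, which is the black line.

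Summed over the 9 genes, the level was 2022, 2009 and 2044 normalised CPM in control and 2000, 2016 and 2006 with fenofibrate, and these sums overlapped. In FPKM, which the authors scaled to library totals, the sum was 375, 372 and 379 in control and 363, 367 and 361 with fenofibrate, and these did not overlap. Whether the total differed thus depended on the scaling.

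Levels were compared between genes in FPKM, which divides by gene length. Mdh1 (69.9 ± 3.03 FPKM, mean ± SD, n = 3) and Cs (68.8 ± 1.74) stood highest in control, and their libraries overlapped. Below them came Mdh2 at 61.3 ± 1.0, Ogdh at 46.9 ± 0.469, Idh3a at 36.8 ± 0.360 and Idh2 at 33.4 ± 1.94 FPKM. Suclg1 at 21.4 ± 0.530, Fh1 at 19.8 ± 0.546 and Idh1 at 17.5 ± 0.483 FPKM stood lowest, and apart from Mdh1 and Cs no neighbours in this order overlapped between libraries. The lowest gene of the 9 was thus the cytosolic isocitrate dehydrogenase, while the highest was the cytosolic malate dehydrogenase.

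With fenofibrate Mdh1 stood at 78.6 ± 3.86 FPKM, Mdh2 at 64.8 ± 0.519 and Cs at 63.1 ± 0.409, and none of their libraries overlapped. Mdh2 took the place of Cs as the gene next to Mdh1. The others kept their order, with Ogdh at 42.7 ± 0.453, Idh3a at 34.8 ± 2.29, Idh2 at 27.8 ± 0.131, Suclg1 at 20.3 ± 0.486, Fh1 at 17.1 ± 1.18 and Idh1 at 14.6 ± 0.867 FPKM. The length behind the deposited FPKM was 1.03 times the merged exon length for Cs and 2.00 times for Idh2. Per kilobase of merged exons the control order was Mdh1, Mdh2, Cs, Ogdh, Idh2, Idh3a, Idh1, Fh1 and Suclg1, so places in the order depend on the length used.

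A ratio of 2 genes within a library does not depend on how libraries are scaled. The mitochondrial to cytosolic ratio Mdh2 to Mdh1, as log2 of counts, was 0.41, 0.45 and 0.36 in control and 0.27, 0.27 and 0.41 with fenofibrate. The mean was 0.41 ± 0.04 (SD) in control and 0.32 ± 0.08 with fenofibrate, and the groups overlapped. The difference of −0.09 had a two-sided exact permutation p of 0.3, or 0.45 adjusted over the 3 ratios tested. With 3 libraries against 3 the smallest p that this test can give is 0.1.

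The corresponding ratio of Idh2 to Idh1 was 1.14, 0.99 and 1.23 in control and 1.22, 1.10 and 1.07 with fenofibrate, as log2 of counts. The groups overlapped almost fully, and the means of 1.12 ± 0.12 and 1.13 ± 0.08 (SD) differed by 0.01 (exact permutation p = 1). The ratio of the NAD-linked to the NADP-linked mitochondrial enzyme, Idh3a to Idh2, was 0.52, 0.61 and 0.47 in control and 0.62, 0.73 and 0.80 with fenofibrate. Each treated library lay above each control, though the nearest pair stood at 0.61 and 0.62. The means of 0.54 ± 0.07 and 0.72 ± 0.09 (SD) differed by 0.18, with the smallest exact permutation p the design allows, 0.1, and 0.3 after adjustment.

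**Figure D3:**
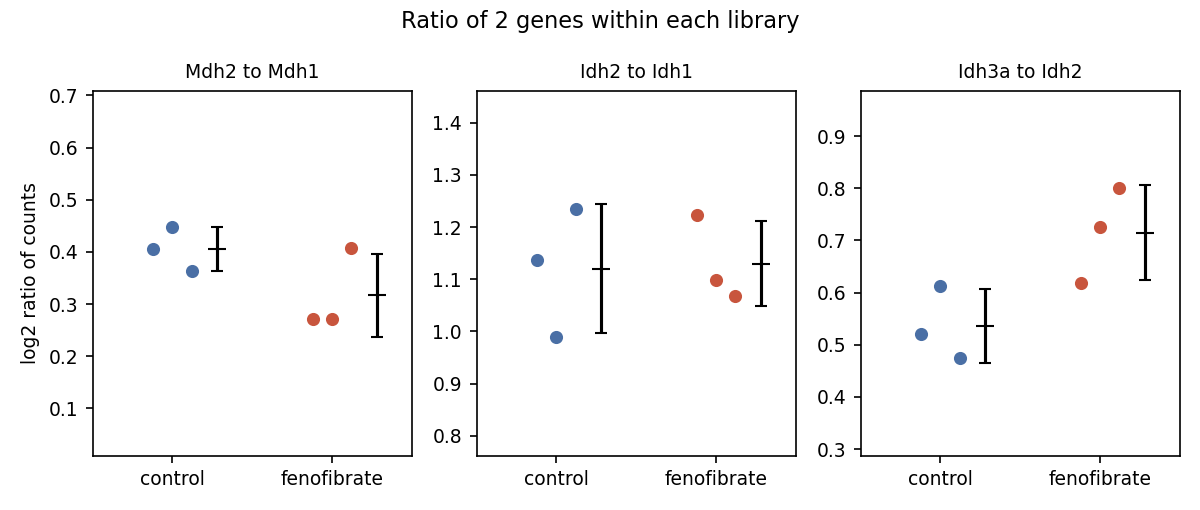
log2 ratio of counts (vertical axis) for 3 pairs of isozyme genes, 1 point per library, with group mean and SD. Idh3a to Idh2 is higher in each of the 3 fenofibrate libraries than in any control, while the groups overlap for Mdh2 to Mdh1 and for Idh2 to Idh1.

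Mdh1, the called gene with the largest change, was set against the 6774 tested genes with a mean of 5 FPKM or more by the Pearson correlation of log2 normalised CPM over the 6 libraries. The 3 genes most like it were Gnai2 (r = 0.995), Kctd15 (0.995) and Wbp2 (0.994). The 6 points share the difference between the groups, so these values are a description.

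The cycle has further subunits and enzymes outside the 9 genes, and their list of 12 was read in the same fit. Ogdhl, a relative of Ogdh, was at 0 counts in all libraries, and the other 11 were tested. Of these, edgeR called 5 higher, 0 lower and left 6 uncalled, with a median log2 fold change of 0.13. The share called was 45.5%, beside 39.1% of all genes. None lay lower at an unadjusted p under 0.05 either, and DESeq2 and limma also called 0 lower. Idh3b, the regulatory beta subunit that pairs with Idh3a, rose 1.18-fold (adjusted p 0.00430, edgeR), from 129, 120 and 122 to 149, 144 and 146 normalised CPM.

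The partners of the other enzymes were read in the same way. Sucla2, the ATP-forming beta subunit that joins the product of Suclg1, rose 1.17-fold (adjusted p 0.0249, edgeR), a call that 9 of the 15 alternatives lost. Suclg2, the GTP-forming beta subunit, had a log2 fold change of 0.02 (0.734). Among the succinate dehydrogenase genes, whose product lies between those of Suclg1 and Fh1, Sdhc rose 1.21-fold (0.00325) and Sdhb 1.17-fold (0.0101), while Sdha (0.09, 0.0977) and Sdhd (0.03, 0.584) were not called. The E2 and E3 subunits that work with Ogdh, Dlst (0.13, adjusted p 0.102) and Dld (−0.04, 0.549), were not called, nor was Idh3g (0.11, 0.204), the gamma subunit beside Idh3a. Over the 9 genes and these 11 together, 7 were called higher, 2 lower (Idh1 and Idh2) and 11 not. Their median log2 fold change was 0.06. Of all genes tested, 19.5% were called higher and 19.5% lower, 39.1% in either direction.

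**Figure D4:**
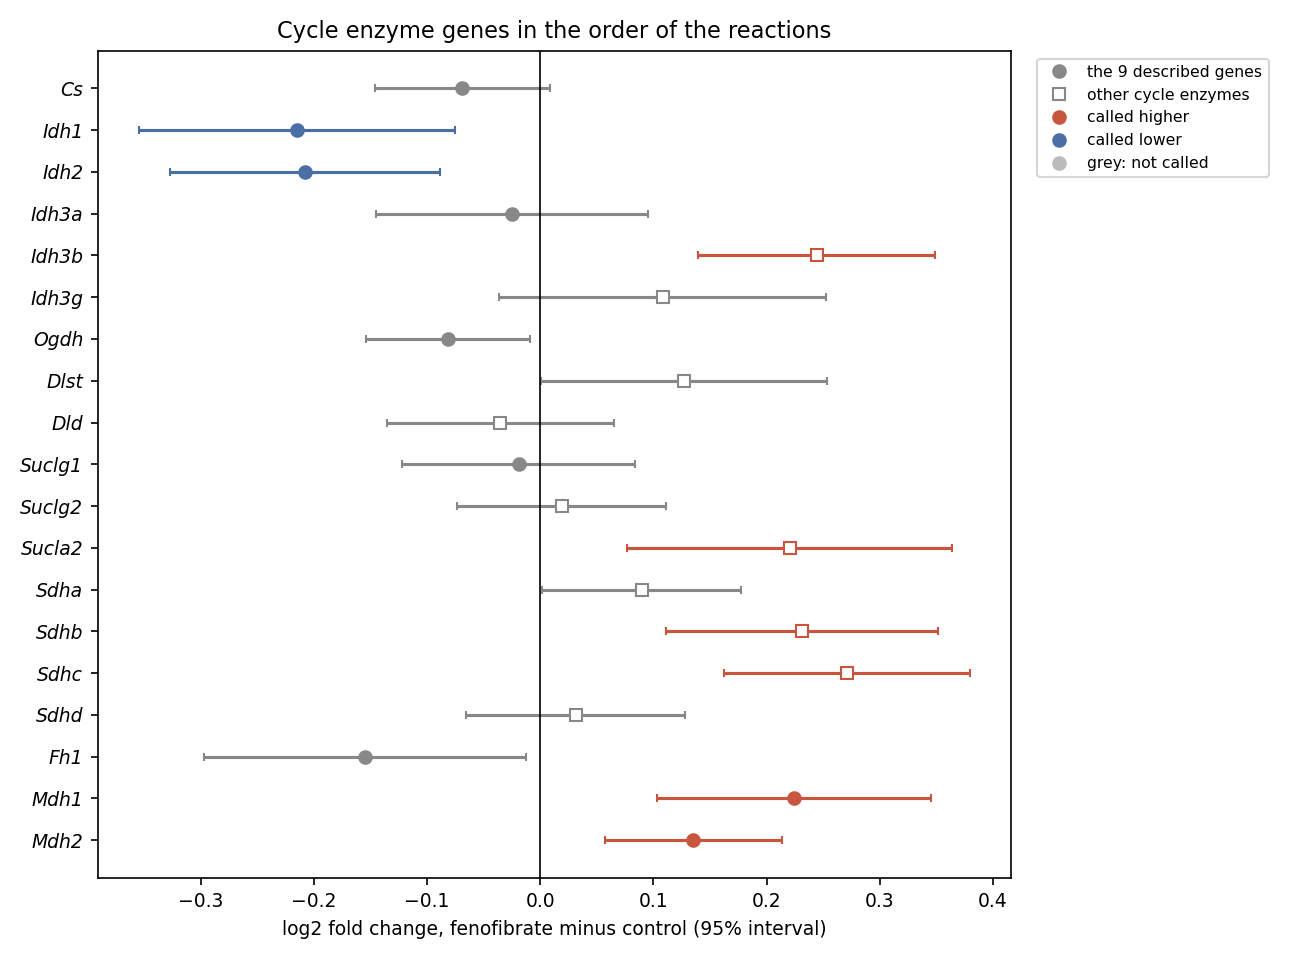
log2 fold change (fenofibrate minus control, horizontal axis) with its 95% interval for 19 of the 20 cycle genes tested, in the order of the reactions from Cs to Mdh2. Filled circles are the 9 genes described and open squares 10 of the 11 further cycle genes tested. The values plotted run from −0.21 for Idh1 to 0.27 for Sdhc. Subunits of the same complex, such as Idh3a and Idh3b, take different places.

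Pyruvate enters the cycle through its carrier, pyruvate dehydrogenase and pyruvate carboxylase, which feed the reaction of Cs. Of the 14 genes in this list 13 were tested, and Pdk4 had 0 counts. In it 5 genes were called higher, 1 lower and 7 not (46.2% called, beside 39.1% of all genes), with a median log2 fold change of 0.18. Pdk1, a kinase that switches pyruvate dehydrogenase off, rose 1.88-fold (adjusted p 0.000135, edgeR), and Pdp2, a phosphatase that switches it on, was 2.30-fold lower (8.92e-05). Pdk2, another such kinase, rose 1.52-fold (0.0208) and the carrier subunit Mpc2 1.51-fold (0.00401). The call of Pdk2 was lost in 4 of the 15 alternatives, among them DESeq2 (0.0948) and leaving out control replicate 1 (0.0690) or fenofibrate replicate 3 (0.0658).

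The list of cytosolic partners and shuttles around Idh1 and Mdh1 had 13 genes, with mitochondrial enzymes such as Pck2 among them. Of the 13 genes 3 were called higher, 4 lower and 6 not (53.8% called, beside 39.1% of all genes), with a median of −0.06. Slc25a11, the 2-oxoglutarate and malate carrier of the malate-aspartate shuttle, rose 1.31-fold (adjusted p 0.000830, edgeR). Got1, the cytosolic aspartate aminotransferase, whose reaction shares oxaloacetate with that of Mdh1, rose 1.20-fold (adjusted p 0.000883, edgeR). Other shuttle genes of the list did not rise. Slc25a13, an aspartate and glutamate carrier, was 1.09-fold lower (adjusted p 0.0495, edgeR), a call that 9 of the 15 alternatives lost. Its relative Slc25a12 (log2 fold change −0.13, adjusted p 0.0730) and Got2 (−0.03, 0.764), the mitochondrial counterpart of Got1, were not called. Me1, the cytosolic malic enzyme and like Idh1 a source of NADPH, had 948, 989 and 973 counts in control and 1805, 1040 and 1957 with fenofibrate. Its rise of 1.66-fold (adjusted p 0.0284) was lost in 9 of the 15 alternatives, and fenofibrate replicate 2 lay near the controls. Acly, which splits citrate in the cytosol, was 1.26-fold lower (0.000249), Pck2, which makes phosphoenolpyruvate from oxaloacetate, 1.43-fold lower (0.00405), and Slc25a10, the dicarboxylate carrier, 1.20-fold lower (0.0139). The call of Slc25a10 was lost without fenofibrate replicate 2.

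Enzymes that make or use 2-oxoglutarate, the product of Idh1, Idh2 and Idh3a and the substrate of Ogdh, or its reduced form 2-hydroxyglutarate, formed a list of 8. In edgeR 0 of the 8 were called higher, 3 were called lower and 5 were not called, with a median of −0.22. The share called, 37.5%, was near the 39.1% of all genes. At an unadjusted p under 0.05 1 gene lay higher in edgeR, and DESeq2 and limma called 0 higher. Psat1 and Gpt2, aminotransferases that release 2-oxoglutarate from glutamate, were 1.60-fold (adjusted p 2.89e-05, edgeR) and 1.52-fold (0.00214) lower.

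Of 5 genes for lipoylation, the modification that the complex of Ogdh needs, edgeR called 1 lower and 0 higher (20% called, beside 39.1% of all genes), with a median of −0.09, and none lay higher at an unadjusted p under 0.05 or in DESeq2 or limma. The lower gene was Mcat, of mitochondrial fatty acid synthesis, at 1.37-fold lower (adjusted p 0.00407, edgeR). Of 19 genes for mitochondrial content and biogenesis, 4 were called higher, 6 lower and 9 not (52.6% called, beside 39.1% of all genes), with a median of −0.01. The coactivator genes went in opposite directions: Ppargc1a rose 1.45-fold (0.000712) and Ppargc1b was 1.97-fold lower (0.00231). Esrra, a nuclear receptor that works with both at mitochondrial genes, was 1.40-fold lower (0.00258). Hspe1, a matrix co-chaperonin, and Tomm20, an import receptor, rose 1.31-fold (0.00125) and 1.27-fold (0.00121). Tfam, the mitochondrial DNA packaging factor, was 1.26-fold lower (0.0312), a call that 7 of the 15 alternatives lost.

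**Figure D5:**
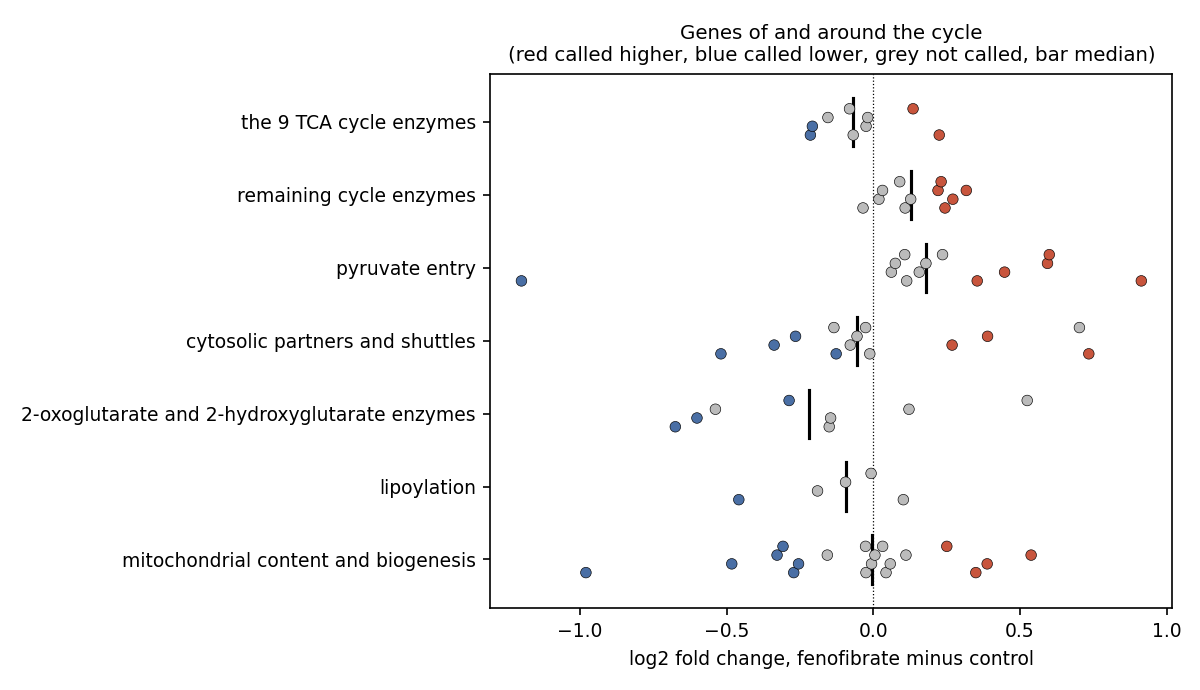
log2 fold change (fenofibrate minus control, horizontal axis) of each gene in the 9 genes and in 6 lists around the cycle, 1 point per gene, red called higher, blue called lower and grey not called, with the list median as a bar. The 9 genes lie between −0.21 and 0.22, while the pyruvate entry list reaches from Pdp2, 2.30-fold lower, to Pdk1, 1.88-fold higher.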

How the data were processed

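Messenger RNA-enriched total RNA was sequenced in 3 control and 3 fenofibrate libraries, grouped by sample title. The deposited table gives raw counts per gene and, from the authors, FPKM. Each deposited FPKM equalled the count divided by 1 length per gene and by the library total, within 0.1%. The submitters' processing notes name HISAT2 2.0.4, StringTie 1.3.0 and GRCm39; their roles, the counting tool and the strand setting are not given in the sources used here. Coordinates are given as GRCm38, since GENCODE M21 holds 99.8% of the gene IDs, and for 98.7% of those, all 9 genes included, start and end are identical. Replicate libraries differed by more than sampling noise.

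The count test used edgeR 4.0.16 in R 4.3.3: filterByExpr, TMM, glmQLFit and glmQLFTest without covariate, Benjamini-Hochberg over all genes, called at 0.05. The SE is the size of the log2 fold change divided by the square root of F. Normalised CPM use TMM-scaled totals. Groups overlap unless every library of one lies above every library of the other. Isozyme ratios were tested by two-sided exact permutation. Intervals cover 95%. The edgeR test was first tested on simulated data. Alternatives were DESeq2 1.42.0, RLE size factors, library totals, other filters, a replicate block, limma 3.58.1 on log2(FPKM + 0.5) or log2(FPKM + 0.1), and leaving out each library.

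Named are the 9 genes, genes overlapping them and remaining cycle enzymes. Of every other list, up to 3 called genes per direction, chosen by fold change, are named. The 3 genes most like the most changed of the 9 are also named. Csl, Slc25a12, Slc25a13 and Got2 in the text and Pdhb, Pdp1 and Mpc1 in the closing section lie outside this rule. They were chosen after their values were seen. Some genes that the rule gives are counted in their lists and not reported here by name. The 9 genes and the lists were chosen with earlier results of these data known. Promoter windows are from RefSeq.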

Additional observations from a re-analysis of the deposited data

How the results depend on the processing

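Over 15 alternatives the 9 genes gave 135 values, of which 110 kept direction and side of the threshold, 11 lost a call, 12 gained one and 2 uncalled values changed sign (Idh3a without fenofibrate replicate 1 and Suclg1 without fenofibrate replicate 2). No called value changed direction. The count called higher, 2 as reported, was 1 with library totals, 1 with limma on log2(FPKM + 0.5), 1 with log2(FPKM + 0.1), 0 with limma without a filter, and 1 to 2 with 1 library left out. The count called lower, 2 as reported, was 5 with library totals, 5 and 5 with the filtered limma fits, 4 with limma without a filter, and 1 to 3 with 1 library left out. Mdh1 was called in 14 of the 15, with an adjusted p of 0.0708 in limma without a filter. The other genes of the 6 lists gave 1031 values, of which 915 kept direction and side, 60 lost a call, 15 gained one, and 24 and 17 uncalled values changed sign by less and by more than 1 SE; calls among them numbered 17 higher (13 to 16 with 1 library left out) and 15 lower (10 to 14). Over all genes 5326 were called, against 4446 with DESeq2, 4614 without a filter, 4557 with limma without a filter and 4248 to 4782 with 1 library left out. Same-numbered libraries did not deviate together (r of 0.020, 0.0097 and −0.023), though this cannot show whether they were handled together. With a replicate block 4540 genes were called and 1 of the 9 was lower, Idh1 having an adjusted p of 0.0511; the isozyme differences were unchanged, with exact p of 0.5, 1 and 0.25. The Idh2 to Idh1 difference ran from −0.06 to 0.07 with 1 library left out. Depth was even between libraries; the causes of these shifts were not tested.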

Other observations

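The following genes of pyruvate entry were chosen after their values were seen. Pdhb, the E1 beta subunit of pyruvate dehydrogenase, rose 1.28-fold with fenofibrate (adjusted p 0.00139, edgeR's quasi-likelihood test). Pdp1, the second pyruvate dehydrogenase phosphatase, rose 1.36-fold (0.0496) where Pdp2 was 2.30-fold lower, and 10 of the 15 alternatives lost the call of Pdp1. Mpc1, the partner of Mpc2 in the pyruvate carrier, was uneven within both groups, with 95, 284 and 246 counts in control and 238, 151 and 302 with fenofibrate.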
